A study of Mus musculus with 4 samples.

Results

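The glycolysis and hypoxia response genes were 32 genes taken by symbol from the deposited table of 31053 genes. They comprised 17 glycolytic enzymes, 3 transporters of glucose and lactate, and 12 genes of the response to low oxygen. Their RNA was counted in live CD45+ cells, which carry the pan-leukocyte surface marker, sorted from excisional skin wounds of mice. The wounds were made with a 3 mm biopsy punch on the back of 8 weeks old male mice of the strain C57BL6/J. Angptl4+/+ mice were wild type, and Angptl4-/- mice lacked the gene of the secreted matricellular protein Angptl4 in the whole body. Wounds were taken at 1 day post wounding (dpw) and at 5 dpw. Each genotype and time point was 1 library, no unwounded skin was among the samples, and the number of mice behind each library is not given in the sources used here. No replicate error could therefore be had, no difference between libraries was tested, and every interval given is a 95% interval of counting error only. The study's methods give different suppliers for the Angptl4-/- line and the wild-type mice, so the deletion and other differences between the colonies cannot be told apart.

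Glycolysis splits glucose into pyruvate in the cytosol and yields ATP without oxygen, and lactate dehydrogenase turns pyruvate into lactate, which leaves the cell through monocarboxylate transporters. When oxygen is scarce, the prolyl hydroxylases that mark HIF-1α for degradation are inactive, and HIF-1 raises transcription of most glycolytic enzymes, of the glucose transporter Slc2a1 and of genes such as Bnip3 and Ndrg1. Neutrophils rely mainly on glycolysis for ATP, and macrophages raise glycolysis when they are activated. Skin wounds are poorly perfused at first and regain vessels as they heal.

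The 4 libraries held 26981596 to 32962595 UMIs, and 19827 of 20069 barcodes passed the filter on cells, with a median of 3736 to 4976 UMIs per cell. Pairs of libraries shared 5 to 15 cell barcodes. Angptl4 had 47 and 78 UMIs in the Angptl4+/+ libraries at 1 and 5 dpw and 0 in both Angptl4-/- libraries. The cells were clustered without the 32 genes and the other metabolic lists among the variable genes, so the clusters were not drawn from the genes described here. Of 14 clusters, 7 were neutrophil-like, and they are called here by leading genes as the Stfa2, Csf1, Csf3, Ifit1, Ngp, Acot1 and Stfa3 clusters. Another 3 were macrophage-like and led by Arg1, by Ms4a7 with C1qb, and by Retnla. The remaining 4 clusters were B cell-like, dendritic cell-like, monocyte-like and NK cell/T cell-like. Neutrophil-like cells numbered 3891, 2706, 3700 and 3508, and macrophage-like cells 1151, 1546, 845 and 646, with the Angptl4+/+ libraries of 1 and 5 dpw before the Angptl4-/- libraries of 1 and 5 dpw. Levels are in CPM, the UMIs of a gene for each 1000000 UMIs counted in a class. Each RNA molecule gives 1 tag near its 3' end, so levels were compared between genes without scaling by length.

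Of all UMIs in macrophage-like cells, the 32 genes together made up 2.16% at 1 dpw against 1.33% at 5 dpw with Angptl4, and 1.86% against 1.16% without it. In neutrophil-like cells the corresponding shares were 1.77% against 1.51% and 1.63% against 1.49%. Macrophage-like cells thus held the larger share at 1 dpw and neutrophil-like cells at 5 dpw, in both genotypes. The other classes held less: 0.451 to 0.621% among monocyte-like, 0.584 to 0.870% among NK cell/T cell-like, 0.490 to 0.996% among dendritic cell-like and 0.164 to 0.243% among B cell-like cells. The B cell-like range rests on 55 cells over all libraries.

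Among the enzymes, Gapdh, which oxidises glyceraldehyde 3-phosphate, had the highest level in both classes, from 2706 to 4738 CPM over the 4 libraries in neutrophil-like cells and from 2685 to 5074 CPM in macrophage-like cells. Pkm, the pyruvate kinase of most tissues, came next with 1787 to 1959 CPM and 1186 to 2219 CPM. The aldolase Aldoa (830.4 to 881 and 829.7 to 1210.5 CPM), the phosphoglycerate kinase Pgk1 (533 to 844 and 652 to 1693 CPM), the mutase Pgam1 (608 to 696 and 656 to 1239.6 CPM), the enolase Eno1 (626 to 751 and 889.8 to 1494 CPM), the lactate dehydrogenase Ldha (662 to 775 and 723 to 1197 CPM) and the triose phosphate isomerase Tpi1 (452 to 530.2 and 587 to 1071 CPM) followed. The hexokinases, which trap glucose in the cell, were low beside them. In neutrophil-like cells Hk2 reached 153 to 331 CPM, Hk1 121 to 146 CPM and Hk3 66.3 to 82.4 CPM. In macrophage-like cells the same genes had 162 to 202, 64.8 to 141 and 27.0 to 52.8 CPM. Of the phosphofructokinases, which commit sugar to glycolysis, Pfkp (425 to 493 CPM in neutrophil-like and 158 to 241 CPM in macrophage-like cells) exceeded Pfkl (110.1 to 142 and 92.7 to 123 CPM) in every library of both classes. The aldolase Aldoc was near the lower end, with 1.80 to 4.15 CPM in neutrophil-like and 4.78 to 14.3 CPM in macrophage-like cells. Aldoa named 2 rows of the table, and the second, ENSMUSG00000114515, held 1 UMI against 96173 of the first.

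The transporters divided the classes. Slc16a3, which exports lactate, had 1181 to 1612 CPM in neutrophil-like cells and 328 to 666 CPM in macrophage-like cells. Slc2a3, a glucose importer of high affinity, had 566 to 829 CPM in neutrophil-like cells and 12.9 to 52.6 CPM in macrophage-like cells. Slc2a1, the importer found in most cells, had 340.1 to 387 and 149.9 to 287 CPM. Among the hypoxia response genes, Ero1l, an oxidase of protein folding, and Hif1a, the oxygen-regulated subunit of HIF-1, had the highest levels on average over the libraries, 216 to 719 and 427 to 841 CPM in macrophage-like cells and 476 to 588 and 300.1 to 408 CPM in neutrophil-like cells. Adm, the gene of the vasodilator adrenomedullin, was the lowest of the 32 in both classes, with 15 UMIs over all neutrophil-like and 81 over all macrophage-like cells. Adm alone stayed under the minimum of 100 UMIs over the 4 libraries of a class, so comparisons cover the other 31 genes.

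**Figure D1:**
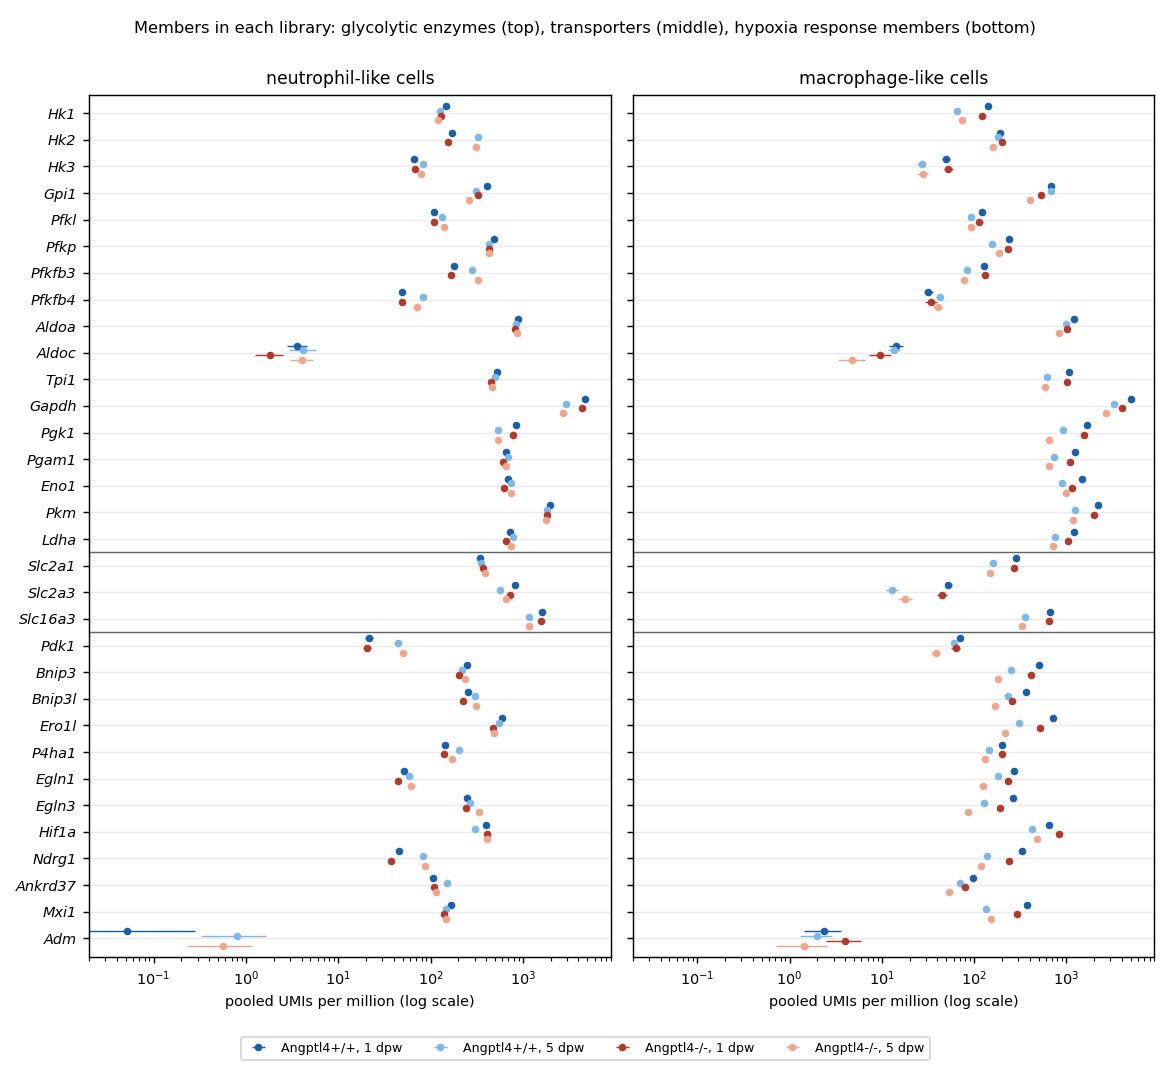
Level of each of the 32 genes in CPM (log axis) in neutrophil-like (left) and macrophage-like cells (right), 1 point per library with its exact Poisson 95% interval. A library with 0 UMIs of Adm is not drawn. In macrophage-like cells most points at 5 dpw (light) lie left of those at 1 dpw (dark), and Slc2a3 is far lower than in neutrophil-like cells.

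Levels also differed between the clusters of a class. In macrophage-like cells, the Arg1 cluster held 17164 to 25899.5 CPM of the 32 genes over the 4 libraries and the Ms4a7 cluster 8251 to 14948 CPM. The log2 ratio of the Arg1 to the Ms4a7 cluster was positive for 29 of 31 genes tested in both 1 dpw libraries and for 30 of 31 in both 5 dpw libraries. Its median over the genes was 0.78 and 0.79 at 1 dpw and 1.26 and 1.05 at 5 dpw in Angptl4+/+ and Angptl4-/- wounds, where the median over all genes tested ran from -0.09 to -0.01. Ndrg1, a stress-responsive gene known as a HIF target, had 242 to 453 CPM in the Arg1 cluster and 50.2 to 133 CPM in the Ms4a7 cluster. Egln3, a prolyl hydroxylase that is itself induced by HIF, had 201 to 377 CPM and 32.5 to 89.5 CPM. Ero1l had 465 to 999.9 CPM and 85.5 to 285 CPM, and Pgk1 1085 to 2144 CPM and 386 to 983 CPM. The ranges of the clusters did not meet for Ndrg1, Egln3, Ero1l and Pgk1. Nor did they meet for other genes of the 32, Gapdh, Aldoa, Gpi1, Tpi1, Pgam1 and Hk2 among them. How often this held over all genes was not counted. The small Retnla cluster, of 207 cells, held 10337 to 19108 CPM of the 32 genes.

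Among the neutrophil-like clusters, the Csf1 cluster held 20494 to 24982 CPM of the 32 genes and the small Stfa3 cluster 18466 to 23206 CPM. The Ngp cluster, led by granule genes that neutrophils make before they leave the bone marrow, held the least of the class with 7942 to 11295 CPM. Ero1l had 1038 to 1306 CPM in the Csf1 cluster and 69.3 to 94.9 CPM in the Ngp cluster. Ldha had 1076 to 1299 CPM and 198 to 331 CPM, and Bnip3, which marks mitochondria for autophagy, 384 to 490.3 CPM and 45.1 to 82.3 CPM. Slc16a3 ran the other way, with 825 to 1002 CPM in the Csf1 cluster and 1117 to 2182 CPM in the Ngp cluster. Slc2a3 was highest in the Csf3 cluster, led by cytokine genes, with 1022 to 1240.0 CPM against 148 to 299 CPM in the Acot1 cluster. Among the 7 neutrophil-like clusters the Acot1 cluster ranged most widely over the libraries, from 11485 and 12082 CPM of the 32 genes at 5 dpw to 19028 and 22322 CPM at 1 dpw.

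**Figure D2:**
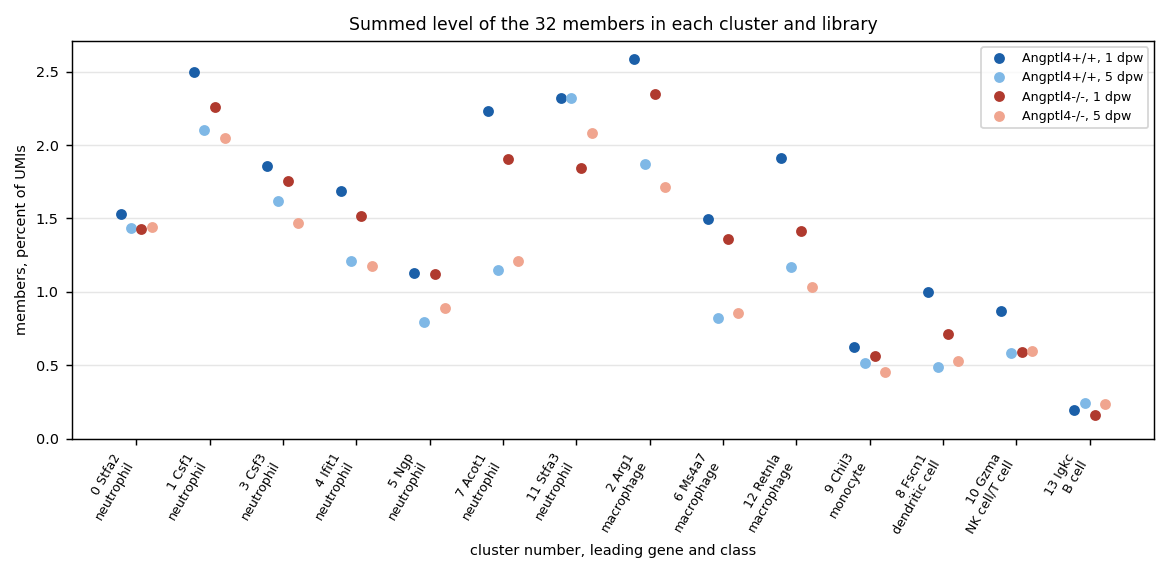
Share of UMIs, in percent, from the 32 genes in each of the 14 clusters, 1 point per library, with clusters ordered by class and named by number and first leading gene. The Csf1, Stfa3 and Arg1 clusters reach the highest shares, and in every macrophage-like cluster both 5 dpw points lie below both 1 dpw points.

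The comparison of 5 dpw with 1 dpw asked how the levels of the genes differed between the time points. In macrophage-like cells, levels were lower at 5 dpw for most of the 32 genes, and in both genotypes. A gene was counted as past the fold when its ratio reached 1.5-fold in either direction with at least 100 UMIs over the 4 libraries of the class. In Angptl4+/+ wounds 21 of 31 genes were lower past the fold and 0 were higher, where 9.79% of the 9544 genes tested were lower and 21.4% higher. In Angptl4-/- wounds 21 of 31 were lower and 0 higher, against 10.4% lower and 17.6% higher over all genes tested. At 2-fold the counts of lower genes were 7 and 6, given without the share of all genes at 2-fold. The median log2 ratio of the 31 genes was -0.67 in Angptl4+/+ and -0.75 in Angptl4-/- wounds, and that of all genes tested 0.16 and 0.10. Past the fold in both genotypes were 17 genes, of which 7 were enzymes, 3 transporters and 7 hypoxia response genes.

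Of the 17 enzymes, 11 were lower past the fold in Angptl4+/+ wounds and 8 in Angptl4-/- wounds. Pgk1, which makes the first ATP of the pathway, had 1693 CPM at 1 dpw and 926 CPM at 5 dpw in Angptl4+/+ wounds, and 1539 and 652 CPM in Angptl4-/- wounds. Its log2 ratios of 5 to 1 dpw were -0.87 (-0.91 to -0.84) and -1.24 (-1.29 to -1.19) in the 2 genotypes, given here and below with Angptl4+/+ first. Tpi1 had 1071 CPM at 1 dpw and 625 CPM at 5 dpw in Angptl4+/+ wounds, and 1022 and 587 CPM in Angptl4-/- wounds, log2 ratios of -0.78 (-0.82 to -0.74) and -0.80 (-0.86 to -0.74). For both genes each 5 dpw library lay below each 1 dpw library, as it did for Pkm, Pgam1, Hk1, Hk3 and Pfkfb3. It also did so for Gapdh, Ldha, Eno1 and Pfkp, and for Hk2, Pfkl and Aldoa, which stayed within the fold. How many of all genes tested lay so was not counted. Pkm had 2219 CPM at 1 dpw and 1237 CPM at 5 dpw in Angptl4+/+ wounds, and 1996 and 1186 CPM in Angptl4-/- wounds, and its ratios were -0.84 (-0.87 to -0.81) and -0.75 (-0.79 to -0.71). For Pgam1 the levels were 1239.6 CPM at 1 dpw and 737 CPM at 5 dpw in Angptl4+/+ wounds, and 1098 and 656 CPM in Angptl4-/- wounds, with ratios of -0.75 (-0.79 to -0.71) and -0.74 (-0.80 to -0.69). The hexokinases Hk1 and Hk3 were lower in both genotypes, with ratios of -1.12 (-1.25 to -0.998) and -0.74 (-0.90 to -0.58) for Hk1 and -0.88 (-1.09 to -0.67) and -0.93 (-1.18 to -0.67) for Hk3. Hk2, the inducible hexokinase, stayed within the fold at -0.09 (-0.18 to 0.00) and -0.32 (-0.44 to -0.21). Pfkfb3, which makes the activator of phosphofructokinase, had 129 CPM at 1 dpw and 84.7 CPM at 5 dpw in Angptl4+/+ wounds, and 132 and 78.1 CPM in Angptl4-/- wounds, ratios of -0.61 (-0.73 to -0.49) and -0.76 (-0.92 to -0.61). Its relative Pfkfb4 was the one gene with a positive ratio in both genotypes, 0.41 (0.20 to 0.62) and 0.23 (-0.03 to 0.49), neither past the fold.

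Other enzymes passed the fold in 1 genotype. Gapdh, Ldha, Eno1 and Pfkp did so in Angptl4+/+ wounds, with ratios of -0.64, -0.67, -0.75 and -0.61, and -0.57, -0.54, -0.21 and -0.32 in Angptl4-/- wounds. The 2 intervals of Eno1 were far apart, -0.75 (-0.78 to -0.71) and -0.21 (-0.26 to -0.16). Eno1b, a near copy of Eno1 whose reads the counting could have split from it, had at most 6.56 CPM in a library of macrophage-like cells, and the summed ratios were -0.75 and -0.21. Aldoc passed it in Angptl4-/- wounds only, at -1.01 (-1.65 to -0.39), against -0.08 (-0.41 to 0.26) in Angptl4+/+ wounds, and rests on few UMIs (56 and 37 at 1 and 5 dpw in Angptl4-/- wounds). The remaining enzymes Gpi1, the second of the pathway, Pfkl and Aldoa stayed within the fold, at 0.01 and -0.40 for Gpi1, -0.41 and -0.30 for Pfkl, and -0.30 and -0.30 for Aldoa. The difference between the genotypes in any of these ratios was not tested.

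All 3 transporters were lower past the fold in macrophage-like cells of both genotypes. Slc16a3 had 666 CPM at 1 dpw and 356 CPM at 5 dpw in Angptl4+/+ wounds, and 646 and 328 CPM in Angptl4-/- wounds, log2 ratios of -0.90 (-0.96 to -0.85) and -0.98 (-1.05 to -0.91). Slc2a1 had 287 CPM at 1 dpw and 160.0 CPM at 5 dpw in Angptl4+/+ wounds, and 273 and 149.9 CPM in Angptl4-/- wounds, ratios of -0.84 (-0.93 to -0.76) and -0.87 (-0.98 to -0.76). Slc2a3 had 52.6 CPM at 1 dpw and 12.9 CPM at 5 dpw in Angptl4+/+ wounds, and 44.9 and 17.8 CPM in Angptl4-/- wounds, ratios of -2.03 (-2.29 to -1.77) and -1.33 (-1.64 to -1.03), the lowest of the 31 genes tested in both genotypes. These levels of Slc2a3 were 6.35% and 2.27% of those in neutrophil-like cells of the Angptl4+/+ libraries at 1 and 5 dpw, and 6.10% and 2.71% in the Angptl4-/- libraries. The 8 neutrophil markers were found in macrophage-like cells at a median of 5.78%, 1.76%, 4.74% and 1.78% of their own neutrophil-like levels in the same order of libraries, with none of the 8 at 0. Single markers ran from 4.08 to 10.7%, 1.46 to 6.63%, 4.06 to 12.0% and 1.43 to 5.95%. Slc2a3 in macrophage-like cells was thus little above the median share at which neutrophil RNA was found there, and its ratio is not read as a change in these cells.

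Of the 11 hypoxia response genes tested, 7 were lower past the fold in Angptl4+/+ and 10 in Angptl4-/- wounds, and all 11 ratios were negative in both. Ero1l had 719 CPM at 1 dpw and 305 CPM at 5 dpw in Angptl4+/+ wounds, and 513 and 216 CPM in Angptl4-/- wounds, log2 ratios of -1.23 (-1.29 to -1.18) and -1.25 (-1.34 to -1.16). Mxi1, a repressor of the Myc network, had 371 CPM at 1 dpw and 134 CPM at 5 dpw in Angptl4+/+ wounds, and 289 and 152 CPM in Angptl4-/- wounds, ratios of -1.46 (-1.55 to -1.38) and -0.93 (-1.04 to -0.82). Both genes were lower in each 5 dpw library than in each 1 dpw library, as were Ndrg1, Bnip3, Bnip3l, Egln3 and Hif1a. So were Egln1, P4ha1, Pdk1 and Ankrd37, described below, and all genes tested were not counted in this way. Ndrg1 had 328 CPM at 1 dpw and 138 CPM at 5 dpw in Angptl4+/+ wounds, and 237 and 119.9 CPM in Angptl4-/- wounds, with ratios of -1.25 (-1.34 to -1.17) and -0.98 (-1.11 to -0.86). Bnip3 had 505 CPM at 1 dpw and 251 CPM at 5 dpw in Angptl4+/+ wounds, and 414 and 180.2 CPM in Angptl4-/- wounds, ratios of -1.01 (-1.07 to -0.94) and -1.20 (-1.30 to -1.11), and its relative Bnip3l followed with -0.65 (-0.72 to -0.58) and -0.63 (-0.74 to -0.52). Egln3 had 263 CPM at 1 dpw and 129 CPM at 5 dpw in Angptl4+/+ wounds, and 190.1 and 87.0 CPM in Angptl4-/- wounds, ratios of -1.02 (-1.11 to -0.93) and -1.13 (-1.27 to -0.99). Hif1a itself had 650.3 CPM at 1 dpw and 427 CPM at 5 dpw in Angptl4+/+ wounds, and 841 and 486 CPM in Angptl4-/- wounds, ratios of -0.61 (-0.66 to -0.55) and -0.79 (-0.85 to -0.73).

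Egln1, the main prolyl hydroxylase that marks HIF-1α, passed the fold in Angptl4-/- wounds at -0.91 (-1.03 to -0.79) and stood just inside it in Angptl4+/+ wounds at -0.58 (-0.66 to -0.496). P4ha1, a collagen prolyl hydroxylase, passed it there too, with -0.63 (-0.75 to -0.51) against -0.45 (-0.54 to -0.35). Pdk1, the kinase that shuts pyruvate dehydrogenase, was lower past it in Angptl4-/- wounds as well, at -0.72 (-0.95 to -0.49), against -0.22 (-0.37 to -0.07). Ankrd37, an ankyrin repeat gene listed among HIF targets, stayed within the fold at -0.44 and -0.58 in Angptl4+/+ and Angptl4-/- wounds. Adm, which was not tested, had 21, 26, 23 and 11 UMIs in the 4 libraries, in the order above.

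**Figure D3:**
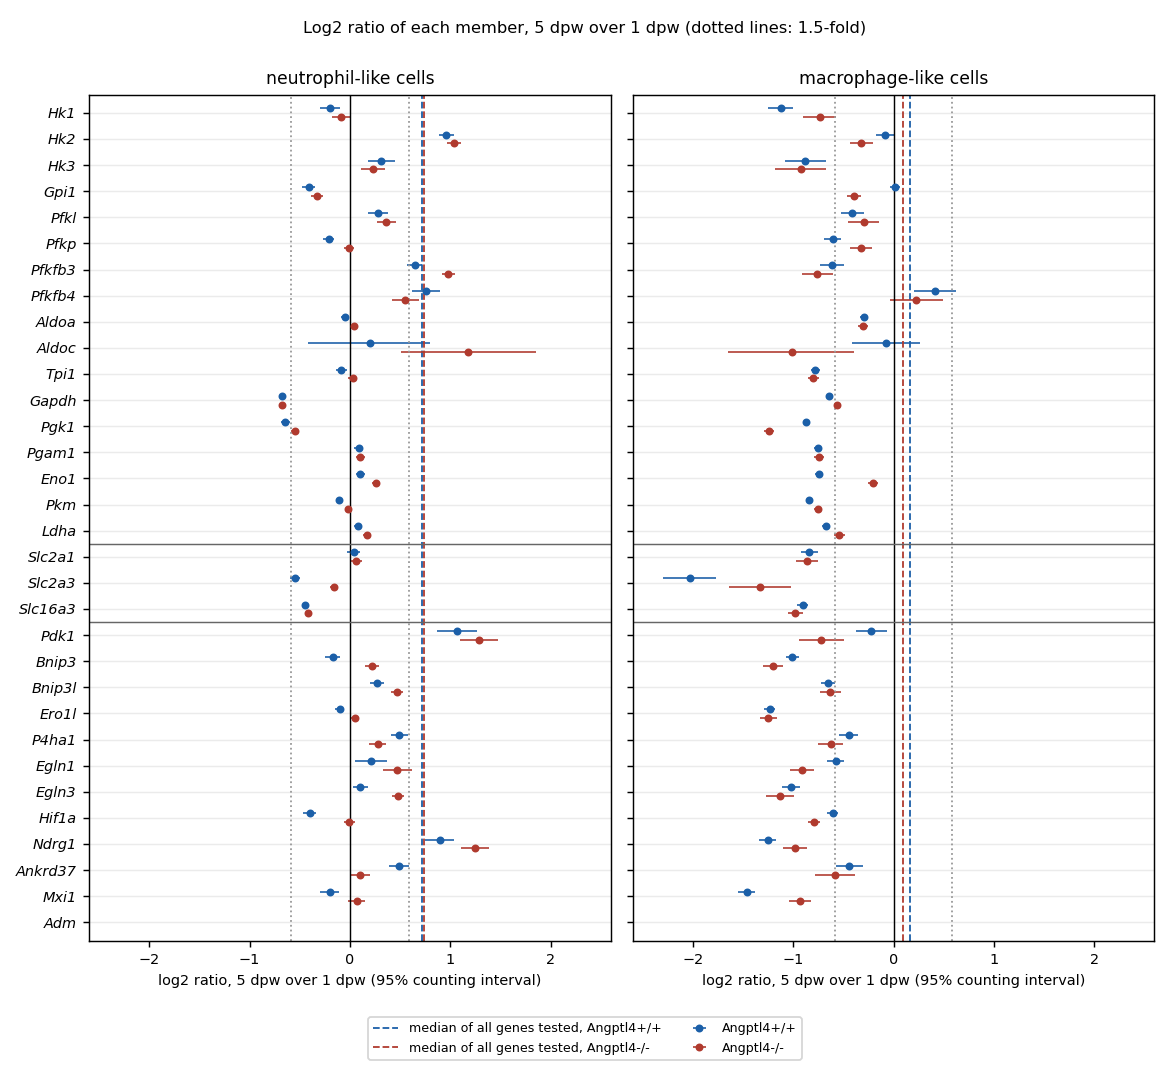
Log2 ratio of 5 dpw over 1 dpw for the 31 genes tested in neutrophil-like (left) and macrophage-like cells (right), blue for Angptl4+/+ and red for Angptl4-/- wounds, bars giving the 95% counting interval. Dashed lines mark the median of all genes tested and dotted lines 1.5-fold. On the right nearly all points lie left of 0 and of the dashed lines, and on the left most points lie near 0 and left of the dashed lines.

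The lower levels at 5 dpw were also seen within each macrophage-like cluster. The median log2 ratio of the genes tested was -0.51 and -0.47 within the Arg1 cluster, -0.88 and -0.80 within the Ms4a7 cluster, and -0.78 and -0.57 within the Retnla cluster. Medians over all genes tested in these clusters ran from -0.01 to 0.16. The Arg1 cluster, which had the higher levels, supplied 73.5% (70.9 to 76.0) of macrophage-like cells in the 1 dpw library of Angptl4+/+ wounds and 57.4% (54.9 to 59.9) in that of 5 dpw, and 67.0% (63.7 to 70.1) and 43.3% (39.5 to 47.3) in Angptl4-/- wounds, all exact Clopper-Pearson intervals. With the 3 clusters weighted equally, the class median became -0.60 in Angptl4+/+ and -0.60 in Angptl4-/- wounds. Neutrophil RNA in macrophage-like cells also differed between the time points, as the marker shares above show. When the median marker share of each gene's neutrophil-like level was subtracted, 21 genes in Angptl4+/+ and 22 in Angptl4-/- wounds were lower past the fold. The subtracted part was at most 14.0% of the macrophage-like level of any tested gene other than Slc2a3. Single markers had shares above the median, and subtracting a larger share was not tried. Macrophage-like cells held a median of 6842 and 5832 UMIs at 1 dpw and 8348 and 11566 at 5 dpw in Angptl4+/+ and Angptl4-/- wounds. With each cell thinned to 1000 UMIs the class median stayed negative in both genotypes, at -0.65 in Angptl4-/- wounds. The part of depth in the ratios was not tested further.

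The promoters of the genes that were lower together in macrophage-like cells at 5 dpw are shown for 6 of them, those of lowest mean ratio over the genotypes among the 14 with a RefSeq entry that passed the fold in both. HIF-1 binds the hypoxia response element, whose core is ACGTG or GCGTG. These letters were searched on both strands, with CACGT and CACGC as the reverse complements, and an ACGTG and a CACGT may overlap within CACGTG. Each sequence runs 5' to 3' on the strand of its gene from 250 bases before to 50 after the start in RefSeq, build GRCm38.p6, and capitals mark each match.
Ero1l, the folding oxidase, chr14:45318523-45318822, minus strand, 3 matches: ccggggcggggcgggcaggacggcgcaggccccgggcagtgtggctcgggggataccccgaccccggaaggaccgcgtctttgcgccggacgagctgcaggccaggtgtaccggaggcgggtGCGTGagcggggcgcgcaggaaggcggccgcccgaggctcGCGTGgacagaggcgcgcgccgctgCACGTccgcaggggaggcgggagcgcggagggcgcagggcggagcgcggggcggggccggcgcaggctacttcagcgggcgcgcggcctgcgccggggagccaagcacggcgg
Mxi1, the Myc network repressor, chr19:53310256-53310555, plus strand, first listed promoter, no match in it: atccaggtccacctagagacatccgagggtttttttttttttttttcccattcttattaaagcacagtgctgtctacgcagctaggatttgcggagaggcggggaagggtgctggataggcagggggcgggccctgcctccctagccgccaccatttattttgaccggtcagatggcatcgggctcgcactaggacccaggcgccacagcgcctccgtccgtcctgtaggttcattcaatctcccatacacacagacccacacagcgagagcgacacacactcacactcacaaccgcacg
Bnip3, the mitophagy receptor, chr7:138909457-138909756, minus strand, 5 matches: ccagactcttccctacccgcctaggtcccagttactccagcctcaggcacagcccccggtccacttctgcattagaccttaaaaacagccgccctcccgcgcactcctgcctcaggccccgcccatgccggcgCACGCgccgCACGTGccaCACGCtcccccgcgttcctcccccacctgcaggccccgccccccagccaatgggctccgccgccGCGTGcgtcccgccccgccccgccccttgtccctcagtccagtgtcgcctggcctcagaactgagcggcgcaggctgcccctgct
Egln3, the HIF-induced prolyl hydroxylase, chr12:54203825-54204124, minus strand, 1 match: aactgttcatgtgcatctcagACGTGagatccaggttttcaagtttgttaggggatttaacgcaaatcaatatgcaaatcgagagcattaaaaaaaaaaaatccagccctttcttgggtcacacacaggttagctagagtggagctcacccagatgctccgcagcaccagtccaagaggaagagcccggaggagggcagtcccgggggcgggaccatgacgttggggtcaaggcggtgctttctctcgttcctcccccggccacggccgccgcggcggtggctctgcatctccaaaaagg
Pgk1, the phosphoglycerate kinase, chrX:106186850-106187149, plus strand, 2 matches: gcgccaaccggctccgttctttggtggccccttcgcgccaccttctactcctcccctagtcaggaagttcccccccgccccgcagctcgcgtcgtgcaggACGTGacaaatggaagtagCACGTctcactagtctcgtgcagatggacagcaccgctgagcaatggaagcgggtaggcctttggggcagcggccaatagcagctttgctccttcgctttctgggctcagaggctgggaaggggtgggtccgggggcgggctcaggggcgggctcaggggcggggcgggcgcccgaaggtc
Slc16a3, the lactate exporter, chr11:120948817-120949116, plus strand, 2 matches: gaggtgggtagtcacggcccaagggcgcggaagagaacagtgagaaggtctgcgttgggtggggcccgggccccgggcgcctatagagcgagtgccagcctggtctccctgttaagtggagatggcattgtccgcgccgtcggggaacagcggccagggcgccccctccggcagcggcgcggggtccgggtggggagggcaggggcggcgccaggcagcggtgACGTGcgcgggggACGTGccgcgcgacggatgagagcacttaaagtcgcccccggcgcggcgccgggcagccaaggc
The genes span, in the GENCODE annotation of GRCm38, Ero1l (ENSMUSG00000021831) chr14:45283087-45318771, Mxi1 (ENSMUSG00000025025) chr19:53310518-53375810, Bnip3 (ENSMUSG00000078566) chr7:138890836-138909519, Egln3 (ENSMUSG00000035105) chr12:54178981-54203860, Pgk1 (ENSMUSG00000062070) chrX:106187100-106203699 and Slc16a3 (ENSMUSG00000025161) chr11:120948480-120960868. RefSeq gives Ero1l as Ero1a. Of the 32 genes, 29 matched an entry, and Bnip3l, Ndrg1 and Slc2a3 did not. Counting the first listed promoter of each gene, 23 of 29 (79.3%) held at least 1 match, against 43.8% of 27025 genes with an entry. The 32 genes were chosen to include HIF targets. The 27025 were all genes with an entry, whether or not they were tested here, so the difference is not read as a result. The first promoters of Hk1, Gpi1, Aldoa, Tpi1, Pkm and Mxi1 held none. Gpi1 and Tpi1 had no further promoter listed, while a later listed promoter held 5 matches for Hk1 and 2 for Pkm, and 2 later ones held 1 match each for Aldoa and for Mxi1. Among the 14 matched genes lower past the fold in both genotypes, 10 held a match in the first promoter. Among all matched genes of the 32 it was 23 of 29, which include these 14, so the 2 shares are not set against each other. As single examples, Tpi1, lower in both genotypes, was without a match, and Hk2 and Pfkfb4, which stayed within the macrophage-like fold, held 2 and 1. A link between matches and ratios was not tested. A match is a run of letters and says nothing of binding.

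In neutrophil-like cells the picture at 5 dpw differed. In Angptl4+/+ wounds 5 of 31 genes were higher past the fold and 2 lower, but 57.4% of the 7859 genes tested in these cells were higher and 4.45% lower. In Angptl4-/- wounds 5 were higher and 1 lower, against 58.9% and 4.12%. The median log2 ratio of the 31 genes was 0.08 and 0.10, and that of all genes tested 0.72 and 0.74. The summed level of the 8 neutrophil markers, S100a8 and S100a9 among them, was 195386 CPM at 1 dpw against 100680.0 CPM at 5 dpw with Angptl4 and 212284 against 101989 CPM without it, so these RNAs took up less of the total at 5 dpw. The median number of UMIs per neutrophil-like cell also went down, from 4683 to 3218 and from 4638 to 3392. Set against the median gene, the median of the 31 genes was below 0 at 5 dpw, at -0.64 and -0.64 on the log2 scale. Of the 31 genes 0 and 0 were then higher and 19 and 16 lower past the fold. The share of all genes past the fold with this scaling is not given here, so these counts have no background beside them.

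Higher past the fold in both genotypes were Hk2, Pfkfb3, Pdk1 and Ndrg1. Hk2 had 170.2 CPM at 1 dpw and 331 CPM at 5 dpw in Angptl4+/+ wounds, and 153 and 314 CPM in Angptl4-/- wounds, log2 ratios of 0.96 (0.89 to 1.03) and 1.04 (0.97 to 1.11). Pfkfb3 had 181 CPM at 1 dpw and 284 CPM at 5 dpw in Angptl4+/+ wounds, and 167 and 329 CPM in Angptl4-/- wounds, ratios of 0.65 (0.57 to 0.72) and 0.98 (0.91 to 1.05). For both genes each 5 dpw library lay above each 1 dpw library, as it did for Pdk1 and Ndrg1. Most genes were higher at 5 dpw in these cells, with a positive ratio for 84.3% and 85.5% of all genes tested. How many of them lay above in each library was not counted. Pdk1 had 21.4 CPM at 1 dpw and 44.8 CPM at 5 dpw in Angptl4+/+ wounds, and 20.6 and 50.2 CPM in Angptl4-/- wounds, ratios of 1.06 (0.86 to 1.27) and 1.29 (1.10 to 1.48). Ndrg1 had 45.1 CPM at 1 dpw and 83.7 CPM at 5 dpw in Angptl4+/+ wounds, and 36.9 and 87.5 CPM in Angptl4-/- wounds, ratios of 0.89 (0.75 to 1.04) and 1.24 (1.10 to 1.39). Relative to the median of all genes, Hk2 was at 0.24 and 0.29, Pdk1 at 0.35 and 0.54, Ndrg1 at 0.17 and 0.502, and Pfkfb3 at -0.07 and 0.24, so that none kept a 1.5-fold difference and Pfkfb3 turned negative in Angptl4+/+ wounds. Pfkfb4 passed the fold on CPM in Angptl4+/+ wounds, at 0.76 (0.61 to 0.90) against 0.55 (0.42 to 0.69), and Aldoc in Angptl4-/- wounds, at 1.18 (0.51 to 1.86) against 0.20 (-0.42 to 0.80) and from 33 and 50 UMIs.

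Gapdh was lower past the fold in both genotypes, with 4738 CPM at 1 dpw and 2953 CPM at 5 dpw in Angptl4+/+ wounds, and 4340.2 and 2706 CPM in Angptl4-/- wounds and log2 ratios of -0.68 (-0.70 to -0.66) and -0.68 (-0.70 to -0.66). Pgk1 had 844 CPM at 1 dpw and 539.7 CPM at 5 dpw in Angptl4+/+ wounds, and 780.5 and 533 CPM in Angptl4-/- wounds, ratios of -0.65 (-0.69 to -0.60) and -0.55 (-0.59 to -0.51), past the fold in Angptl4+/+ wounds only. Slc16a3 and Slc2a3 were within it, at -0.45 and -0.42 for Slc16a3 and at -0.55 and -0.16 for Slc2a3. Gpi1 was within it too, at -0.41 in Angptl4+/+ and -0.33 in Angptl4-/- wounds. The enzymes Aldoa, Tpi1, Pgam1, Eno1, Pkm and Ldha ran from -0.11 to 0.26 over both genotypes. The sequenced RNA of neutrophil-like cells thus held those 6 enzymes in nearly the same proportion at both time points, and Gapdh and Pgk1 in a lower one at 5 dpw. Within clusters the median of the genes tested ran from -0.23 to 0.45 in 6 of the 7 neutrophil-like clusters. Medians over all genes tested in those 6 ran from 0.14 to 0.63. The Acot1 cluster, of 874 cells, had the lowest medians, -0.73 in Angptl4+/+ and -0.42 in Angptl4-/- wounds, where all genes tested had medians of 0.25 and 0.27. In that cluster 26 of 30 genes tested had a negative ratio in Angptl4+/+ and 25 of 30 in Angptl4-/- wounds. Of all genes tested there, 65.9% and 67.5% were positive. The genes also lay below all genes in the Ifit1 cluster, with -0.23 and -0.16 beside 0.57 and 0.53. In the Ngp cluster they had 0.01 and 0.05 beside 0.62 and 0.63. Only in the Stfa3 cluster was their median above that of all genes, 0.16 and 0.45 beside 0.14 and 0.18.

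**Figure D4:**
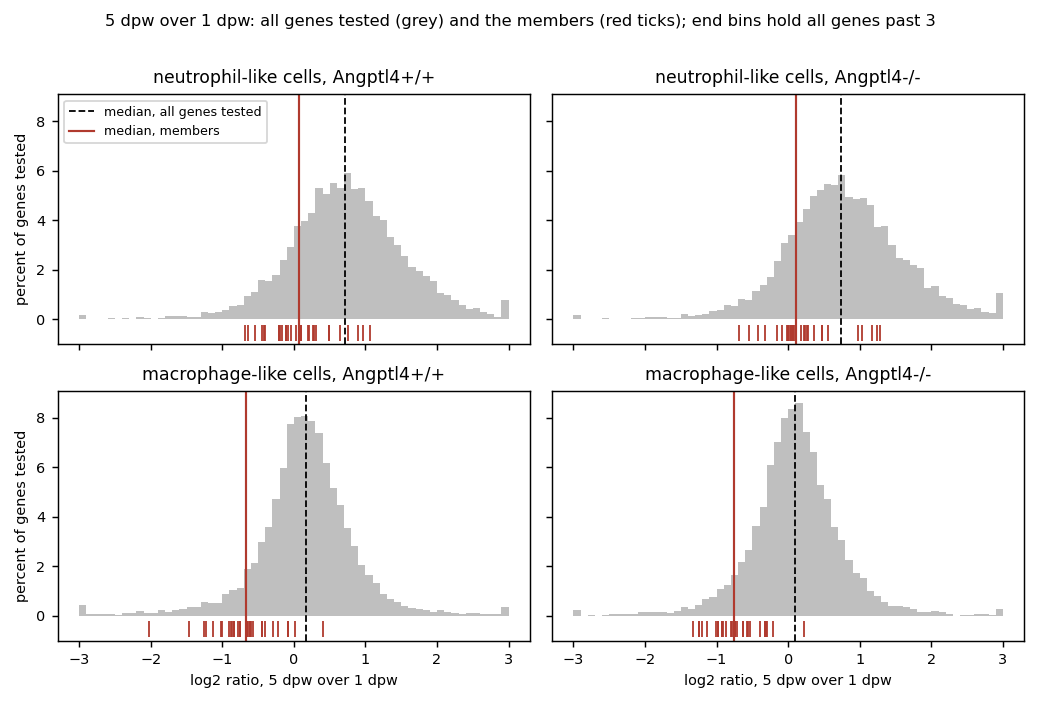
Distribution of the log2 ratio of 5 dpw over 1 dpw over all genes tested (grey, percent of genes per bin of 0.1) with the 31 members tested as red ticks, for each class and genotype. Solid red and dashed black lines give the medians of the members and of all genes, and the members sit left of the bulk in all 4 panels and, on CPM, left of 0 only in macrophage-like cells.

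The comparison of genotypes asked whether loss of Angptl4 went with another level of these genes. At either time point few of them passed the fold. These ratios draw on the same 4 libraries as those between the time points. In macrophage-like cells at 1 dpw 0 of 31 genes were higher and 0 lower in Angptl4-/- wounds, where 3.83% of all genes tested were higher and 3.66% lower. At 5 dpw 0 were higher and 3 lower, against 2.49% and 4.14%. Most ratios were negative without reaching the fold. Of the 31, 25 were negative at 1 dpw and 23 at 5 dpw, with medians of -0.19 and -0.15, while 54.3% and 46.1% of all genes tested were positive with medians of 0.02 and -0.02. At 5 dpw the Arg1 cluster held fewer of the macrophage-like cells in Angptl4-/- wounds, as given above, and the Ms4a7 cluster more, 48.1% against 36.4%. Within the Arg1 cluster the median at 5 dpw was -0.03, with 18 of 31 genes tested negative, where 48.8% of all genes tested there were positive. Within the Ms4a7 cluster it was 0.08, with 24 of 30 positive, where 44.8% of all genes tested there were positive. At 1 dpw the medians were -0.10 and -0.11 in these clusters, with 22 of 31 and 20 of 30 negative, where 52.4% and 49.9% of all genes tested were positive. Within the small Retnla cluster the median was -0.44 at 1 dpw, with 25 of 27 genes tested negative. At 5 dpw it was -0.31 there, with 22 of 27 negative. Of all genes tested in that cluster 50.1% and 51.8% were positive at 1 and 5 dpw. That cluster held 26 Angptl4-/- and 29 Angptl4+/+ cells at 1 dpw, and 55 and 97 at 5 dpw. Medians over all genes tested in the macrophage-like clusters ran from -0.03 to 0.01 over both time points.

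The 3 genes past the fold in macrophage-like cells at 5 dpw were Gpi1, Aldoc and Pdk1. Gpi1, the glucose phosphate isomerase, had 404 CPM in Angptl4-/- and 680.3 CPM in Angptl4+/+ wounds, a log2 ratio of -0.75 (-0.81 to -0.69), and 532 CPM in Angptl4-/- and 674 CPM in Angptl4+/+ wounds at 1 dpw, -0.34 (-0.41 to -0.28). Aldoc had 4.78 CPM in Angptl4-/- and 13.6 CPM in Angptl4+/+ wounds, -1.503 (-2.06 to -0.99), and 9.66 CPM in Angptl4-/- and 14.3 CPM in Angptl4+/+ wounds at 1 dpw, -0.57 (-1.05 to -0.10). Pdk1 had 38.3 CPM in Angptl4-/- and 60.2 CPM in Angptl4+/+ wounds, -0.65 (-0.85 to -0.46), and 63.0 CPM in Angptl4-/- and 70.1 CPM in Angptl4+/+ wounds at 1 dpw, -0.16 (-0.35 to 0.03). Gpi1 and Aldoc were thus on the lower side at both time points. The size for Gpi1 at 5 dpw differed by cluster. It had 548 CPM in Angptl4-/- against 1019 CPM in Angptl4+/+ wounds in the Arg1 cluster, 302 against 338 CPM in the Ms4a7 cluster and 456 against 659 CPM in the Retnla cluster. In neutrophil-like cells Gpi1 was also on the lower side, at 324 against 412 CPM at 1 dpw and 258 against 309 CPM at 5 dpw. The count of 3 depended on the processing, being 6 with cells thinned to 1000 UMIs and with finer clusters. Both counts of 6 are given without the share of all genes in those settings. Several hypoxia response genes were on the lower side on both days without passing the fold. At 1 and 5 dpw Ero1l was at -0.49 and -0.50, Bnip3l at -0.49 and -0.47, Egln3 at -0.47 and -0.57, and Bnip3 at -0.28 and -0.48. Hif1a ran against them with 0.37 (0.32 to 0.43) and 0.19 (0.13 to 0.25), as did Slc2a3 at 5 dpw with 0.47, from levels near the neutrophil share described above. Eno1 was at -0.39 (-0.43 to -0.35) at 1 dpw and 0.15 (0.11 to 0.19) at 5 dpw.

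In neutrophil-like cells 1 of 31 genes passed the fold at 1 dpw and none at 5 dpw. At 1 dpw 0 were higher and 1 lower, against 1.65% and 7.19% of all genes tested. At 5 dpw 0 were higher and 0 lower, against 2.7% and 5.71%. The gene was Aldoc, with 1.80 CPM in Angptl4-/- and 3.60 CPM in Angptl4+/+ wounds, 33 and 71 UMIs, a ratio of -1.002 (-1.64 to -0.39), and it was level at 5 dpw at -0.03 (-0.68 to 0.63). The other ratios ran from -0.35 to 0.13 at 1 dpw and from -0.38 to 0.44 at 5 dpw. The median was -0.13 at 1 dpw with 27 of 31 negative, beside -0.10 for all genes tested, of which 31.6% were positive. At 5 dpw it was -0.00172 with 14 of 31 positive, beside -0.08 for all genes tested. Hif1a was again on the higher side at 5 dpw, with 406 CPM in Angptl4-/- and 300.1 CPM in Angptl4+/+ wounds, 0.44 (0.37 to 0.51), and was level at 1 dpw at 0.04 (-0.01 to 0.09). Eno1b, the near copy of Eno1, was higher in Angptl4-/- wounds on both days, at 4.36 against 0.355 CPM and 4.80 against 1.04 CPM in neutrophil-like cells. Summing it with Eno1 left ratios of -0.13 and 0.02.

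**Figure D5:**
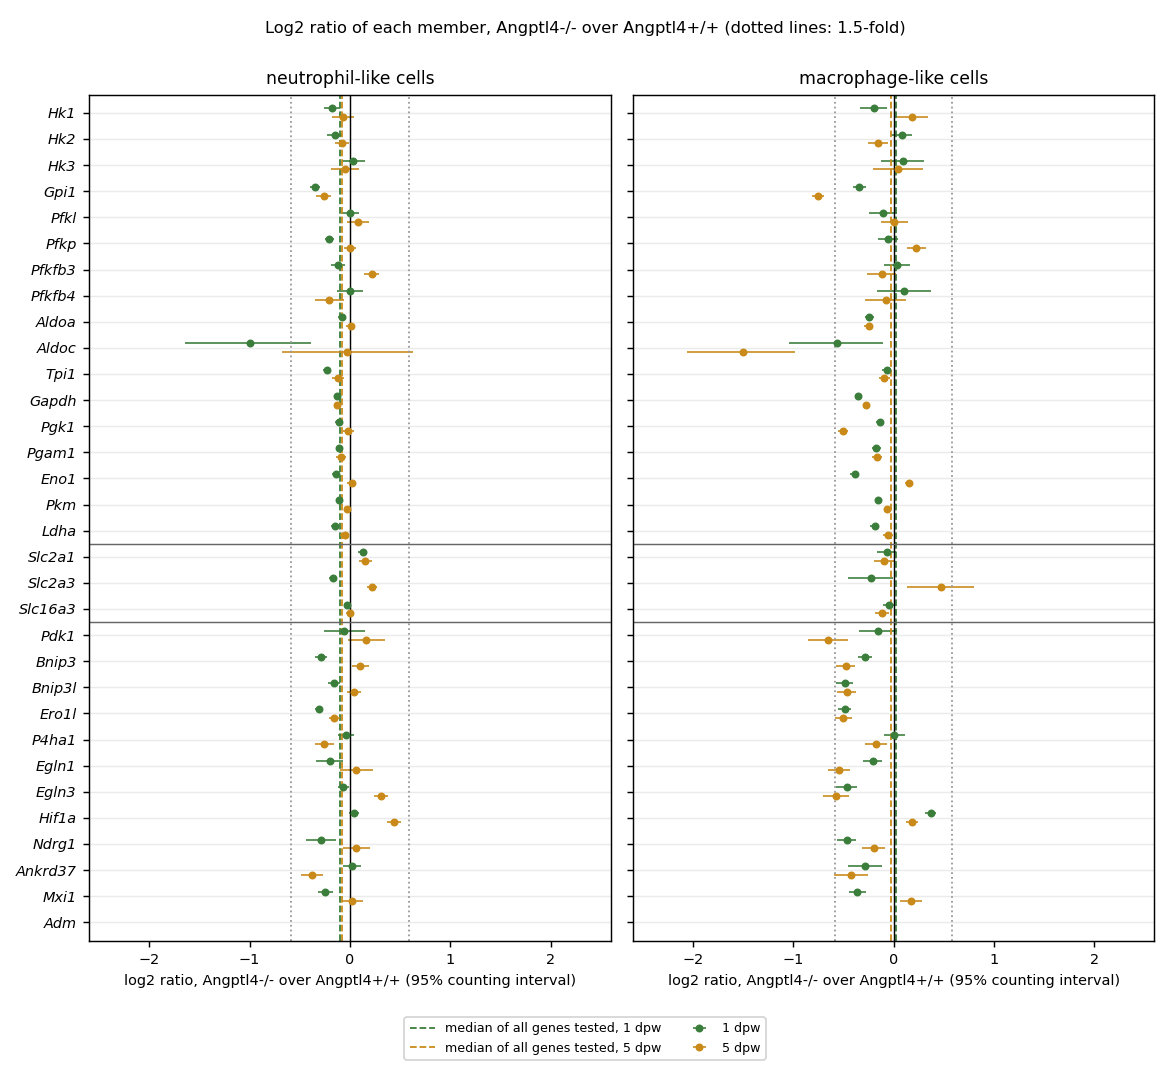
Log2 ratio of Angptl4-/- over Angptl4+/+ wounds for the 31 genes tested in neutrophil-like (left) and macrophage-like cells (right), green for 1 dpw and ochre for 5 dpw, bars giving the 95% counting interval, with dashed lines at the median of all genes tested and dotted lines at 1.5-fold. Points crowd around 0 in neutrophil-like cells and lie mostly left of 0 in macrophage-like cells, with Gpi1, Aldoc and Pdk1 past the left dotted line at 5 dpw.

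Macrophage-like and neutrophil-like cells of one library share its handling, so they were also compared within each library. At 1 dpw 13 of 31 genes were higher and 4 lower past the fold in macrophage-like cells of Angptl4+/+ wounds, against 70.7% and 13.3% of the 10493 genes tested. The Angptl4-/- library gave 13 and 3, against 71.9% and 13.5%. At 5 dpw the counts turned, to 5 higher and 12 lower in Angptl4+/+ wounds against 58.4% and 19.4%, and to 2 and 15 in Angptl4-/- wounds against 59.2% and 19.7%. The genes higher in macrophage-like cells on CPM made up a smaller share of the 31 than of all genes in every library. With the median gene set to 0, 0 to 2 were higher and 24 to 28 of 31 were lower past the fold in each library. The share of all genes past the fold with that scaling is not given here.

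On CPM, Gpi1 and Egln1 were higher past the fold in macrophage-like cells in all 4 libraries, with log2 ratios of 0.65 to 1.14 and 1.01 to 2.40. Set against the median gene, Gpi1 ran from -1.14 to 0.17, below 0 in all but the Angptl4+/+ library at 5 dpw, and Egln1 ran from -0.03 to 0.69. Pfkp, Slc2a3 and Slc16a3 were lower past the fold in all 4, with -1.43 to -0.88, -5.46 to -3.98 and -1.85 to -1.27. Ndrg1 was 2.86 and 2.68 at 1 dpw in Angptl4+/+ and Angptl4-/- wounds, and 0.72 and 0.45 at 5 dpw. Pfkfb3 went from -0.49 and -0.34 to -1.75 and -2.08. The ratios of both genes moved in the same direction between the time points in the 2 genotypes.

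The share of cells with a UMI was also taken. After each cell was thinned to 1000 UMIs, which left out 98, 157, 86 and 101 shallower cells of all classes, Ldha was seen in 65.8%, 46.3%, 63.1% and 45.8% of macrophage-like cells, with libraries in the same order as the cell numbers above, and in 44.4%, 43.1%, 42.6% and 41.8% of neutrophil-like cells. At full depth the shares were 93.3%, 90.6%, 90.1% and 92.9% and 81.6%, 67.2%, 80.0% and 69.5%, with median depths of 5832 to 11566 UMIs in macrophage-like and 3218 to 4683 UMIs in neutrophil-like cells. Ndrg1 was seen in 26.9%, 13.8%, 22.2% and 12.9% of thinned macrophage-like and 4.72%, 7.71%, 3.67% and 8.31% of thinned neutrophil-like cells. In macrophage-like cells both genes were seen in fewer thinned cells at 5 than at 1 dpw in either genotype, whereas at full depth the share for Ldha in Angptl4-/- wounds was higher at 5 dpw. No class sorted here is known to lack Ldha, so no background share could be set beside it.

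In dendritic cell-like cells the median ratio of 5 to 1 dpw over 29 genes tested was -1.18 in Angptl4+/+ wounds, with 28 negative, and -0.38 in Angptl4-/- wounds, with 22 negative, beside -0.11 and -0.11 for all genes tested. Of all genes tested 39.7% and 38.9% were positive. The ratio of Angptl4-/- over Angptl4+/+ wounds in these cells had a median of -0.46 at 1 dpw, with 25 of 29 negative, and of 0.29 at 5 dpw, with 25 of 29 positive. For all genes tested the medians were -0.003 and 0.003, with 49.7% and 50.4% positive. Gapdh had 2689 CPM at 1 dpw and 1577 CPM at 5 dpw in Angptl4+/+ wounds, and 1851 and 1421 CPM in Angptl4-/- wounds, and Pgk1 611 CPM at 1 dpw and 231 CPM at 5 dpw in Angptl4+/+ wounds, and 438 and 213 CPM in Angptl4-/- wounds. Bnip3 had 119 CPM at 1 dpw and 27.8 CPM at 5 dpw in Angptl4+/+ wounds, and 37.8 and 45.2 CPM in Angptl4-/- wounds. The Angptl4+/+ library at 1 dpw was the highest of the 4 for each of these genes. The class held 110, 308, 87 and 206 cells, and neutrophil markers summed to 4002 and 2885 CPM in it at 1 dpw and 630.4 and 678 CPM at 5 dpw, whose part in these ratios was not tested. In monocyte-like cells the medians of 5 over 1 dpw over 28 genes were -0.07 and -0.16, beside -0.06 and -0.03 for all genes tested. Those of Angptl4-/- over Angptl4+/+ were -0.12 and -0.24 at 1 and 5 dpw, beside -0.02 and 0.02.

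Neighbouring pathways were read in macrophage-like cells from lists of other genes. Of 33 other hypoxia response genes, 26 were tested, and 11 were lower past the fold at 5 dpw and 2 higher in Angptl4+/+ wounds, 14 and 1 in Angptl4-/- wounds. Of all genes tested 9.79% and 10.4% were lower and 21.4% and 17.6% higher. The list had medians of -0.498 and -0.60, beside 0.16 and 0.10 for all genes tested. Lower in both genotypes were 10, among them Vegfa, the endothelial growth factor, with 533 and 176 CPM at 1 and 5 dpw in Angptl4+/+ and 462 and 219 CPM in Angptl4-/- wounds, and Nos2, the inducible nitric oxide synthase, with 178 and 26.6 CPM at 1 and 5 dpw in Angptl4+/+ and 128 and 19.4 CPM in Angptl4-/- wounds. Their log2 ratios were -1.60 and -1.08 for Vegfa and -2.74 and -2.72 for Nos2. Car9, a carbonic anhydrase, was the one higher in both, at 1.63 and 1.78 from levels under 10 CPM. Of 31 other glycolysis genes, 16 were tested, and 3 were lower and 8 higher in Angptl4+/+ wounds and 5 and 7 in Angptl4-/- wounds, with medians of 0.51 and 0.35. Pgm2 and Gys1, of glycogen synthesis, and Slc16a1, a monocarboxylate transporter, were lower in both genotypes, at -0.97 and -1.18, -0.63 and -1.03 and -0.91 and -1.24. Ldhb, the lactate dehydrogenase form of oxidative tissues, was higher in both at 1.84 and 1.70, with 3.02 and 10.8 CPM at 1 and 5 dpw in Angptl4+/+ and 2.59 and 8.40 CPM in Angptl4-/- wounds, and Slc2a6, a glucose transporter, at 1.11 and 0.65. The others higher in both were Adpgk, the ADP-dependent glucokinase, at 0.59 and 0.66, Bpgm, the bisphosphoglycerate mutase, at 1.47 and 0.63, Slc2a8, a glucose transporter, at 0.96 and 1.52, and G6pc3, a glucose-6-phosphatase, at 0.70 and 0.75. The interval of Bpgm in Angptl4-/- wounds, -0.25 to 1.55, held 0.

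In macrophage-like cells, lists of mitochondrial genes and that of the pentose phosphate pathway had positive medians at 5 dpw, as all genes tested did. Of 17 genes of the tricarboxylic acid cycle, 16 were tested in macrophage-like cells, and 6 were higher and 0 lower past the fold at 5 dpw in Angptl4+/+ wounds, 3 and 0 in Angptl4-/- wounds. Of all genes tested 21.4% and 17.6% were higher past the fold, so the count in Angptl4-/- wounds was near the share over all genes. The median log2 ratios of the list were 0.34 and 0.34, beside 0.16 and 0.10 for all genes tested, and Idh3a, a subunit of isocitrate dehydrogenase, was at 1.03 and 0.63. The 10 genes tested of 12 for pyruvate dehydrogenase and pyruvate transport had medians of 0.19 and 0.16, and the 7 genes of the pentose phosphate pathway 0.21 and 0.24 with none past the fold in either direction. In neutrophil-like cells the tricarboxylic acid cycle list had medians of 0.99 and 0.80, beside 0.72 and 0.74 for all genes tested there. Of its 13 genes tested, 9 were higher past the fold in each genotype, against 57.4% and 58.9% of all genes tested. The other hypoxia response genes had 0.21 and 0.28 and the other glycolysis genes -0.01 and 0.14 in neutrophil-like cells. Both lists were below the medians of all genes tested, as the 31 genes were. Between genotypes in macrophage-like cells, Plod1, a lysyl hydroxylase, was lower in Angptl4-/- wounds on both days, at -0.78 and -0.70, and Gbe1, the glycogen branching enzyme, at -0.71 and -0.94. Car9 was also lower past the fold there on both days, and Eno1b was higher past it.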

How the data were processed

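Live CD45+ PI- cells from wound tissue were sequenced with the 10x Chromium Single Cell 3' V3 kit. The authors aligned reads to mm10 with Cell Ranger and deposited 4 matrices of whole-number UMI counts per gene and barcode, not normalized. The submitters' processing notes name Cell Ranger 3.1.0 and Seurat 3.0, and the annotation release is not given in the sources used here. The list of 32 genes, the marker lists and the other gene lists were chosen with earlier results of these data known. Cells were kept from 200 detected genes upward and up to 10% mitochondrial UMIs, which removed 242 of 20069 barcodes. Cells were integrated and clustered with Seurat 5.3.0 in R 4.3.3 (2000 variable genes, without 132 metabolic genes that include the members, 30 dimensions, resolution 0.5). A cluster was named X-like from the marker list with the highest mean score when at least 3 of its markers were seen in 10% of its cells and no other list had more genes among its 10 leading genes. The 10% minimum for leading genes was chosen after seeing the data. Doublets were called with Scrublet (scanpy 1.11.5), kept in the values reported and left out in an alternative. Its own threshold marked 0 to 3 cells per library and had not worked, so the cells with the highest scores, 213 to 256 per library, were taken as doublets.

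Counts were summed by class and library and given per 1000000 UMIs (CPM), with exact Poisson 95% intervals. Ratios had exact conditional binomial 95% intervals, computed with scipy 1.17.1, and shares exact Clopper-Pearson intervals. All of these cover counting error only. Each ratio was computed for every gene with at least 100 UMIs over the 4 libraries of the class, and a gene past 1.5-fold was described with its values. Apart from Angptl4, markers and leading genes, genes outside the 32 were named only where they passed 1.5-fold in the same direction in both comparisons of a kind. Not every gene that did so was named. There were no replicates, so no test was run. Alternatives were a stricter cell filter, no integration, resolution 1.0, 1000 UMIs per cell, no doublets, the median gene set to 0, means over cells, equal weight of clusters, a minimum of 20 UMIs and 2-fold. Omitting the Acot1 cluster and subtracting neutrophil RNA were added after seeing the data. The Acot1 cluster was omitted because single cells with mast cell genes lay in it. The 4 mast cell markers summed to 152 CPM in neutrophil-like cells of the Angptl4-/- library at 5 dpw, and to 0 to 2.53 CPM in the others. Markers of erythroid cells and platelets summed to 938 CPM in that library and to 5.62 to 9.91 CPM in the others. The intervals were tried only on simulated counts that held counting error alone. Variation between cells, mice and libraries was outside that trial.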

Additional observations from a re-analysis of the deposited data

Results flagged for a closer look

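Between 1 and 5 dpw, several genes passed the fold upward in neutrophil-like cells and downward in macrophage-like cells. In Angptl4+/+ wounds the log2 ratios were 0.65 and -0.61 for Pfkfb3 and 0.89 and -1.25 for Ndrg1, neutrophil-like first. In Angptl4-/- wounds the log2 ratios were 0.98 and -0.76 for Pfkfb3, 1.18 and -1.01 for Aldoc, 1.29 and -0.72 for Pdk1 and 1.24 and -0.98 for Ndrg1, neutrophil-like first. The difference between the classes was not tested. With the median gene set to 0, the neutrophil-like ratio of Pfkfb3 in Angptl4+/+ wounds was below 0, and no neutrophil-like ratio of Pfkfb3, Aldoc, Ndrg1 or Pdk1 reached 1.5-fold. Aldoc in Angptl4-/- neutrophil-like cells was then at 0.43 and rests on 33 and 50 UMIs at 1 and 5 dpw.

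In dendritic cell-like cells, the ratio of Angptl4-/- over Angptl4+/+ wounds passed the fold in opposite directions at 1 and 5 dpw for Slc2a3 (-1.63 and 0.62) and Bnip3 (-1.65 and 0.70). The difference between the time points was not tested, and these cells numbered 110, 308, 87 and 206 in the 4 libraries. Slc2a3 rests on 175 UMIs and Bnip3 on 483 over the 4 libraries of the class. Slc2a3 had 10.1 to 44.2 CPM there, against 566 to 829 CPM in neutrophil-like cells. The part of neutrophil RNA in these ratios was not tested.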

How the results depend on the processing

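The median ratio of 5 over 1 dpw in macrophage-like cells stayed negative in every alternative run, from -0.85 to -0.60, and 16 to 24 genes were lower past 1.5-fold. Over all comparisons 89 medians and 230 counts stayed within limits (for a median, the 95% counting interval of its middle genes; for a count, 1.5 times the reported count), 35 medians and 42 counts did not, and the causes were not tested. Of the single genes, 774 values stayed within their interval, 403 left it in the same direction and 24 turned. The 32 shares of cells with a UMI differed between full depth and 1000 UMIs. With 2-fold in place of 1.5-fold, the count of higher genes was for 5 over 1 dpw, 1 (neutrophil-like Angptl4+/+), and for macrophage-like over neutrophil-like, 3 (Angptl4+/+ 5 dpw), 8 (Angptl4-/- 1 dpw) and 1 (Angptl4-/- 5 dpw). With 2-fold in place of 1.5-fold, the count of lower genes was for 5 over 1 dpw, 0 (neutrophil-like Angptl4+/+), 0 (neutrophil-like Angptl4-/-), 7 (macrophage-like Angptl4+/+) and 6 (macrophage-like Angptl4-/-), and for Angptl4-/- over Angptl4+/+, 1 (macrophage-like 5 dpw), and for macrophage-like over neutrophil-like, 9 (Angptl4-/- 5 dpw). With a minimum of 20 UMIs per gene, the median was for macrophage-like over neutrophil-like, -0.26 (Angptl4+/+ 5 dpw). With a minimum of 20 UMIs per gene, the count of higher genes was for Angptl4-/- over Angptl4+/+, 1 (macrophage-like 1 dpw). With at least 500 genes and at most 5% mitochondrial UMIs per cell, the median was for 5 over 1 dpw, -0.72 (macrophage-like Angptl4+/+) and -0.71 (macrophage-like Angptl4-/-). With at least 500 genes and at most 5% mitochondrial UMIs per cell, the count of lower genes was for Angptl4-/- over Angptl4+/+, 1 (macrophage-like 1 dpw). With cells thinned to 1000 UMIs, the median was for 5 over 1 dpw, -0.0117 (neutrophil-like Angptl4+/+), 0.0428 (neutrophil-like Angptl4-/-) and -0.65 (macrophage-like Angptl4-/-), and for macrophage-like over neutrophil-like, 0.31 (Angptl4+/+ 1 dpw), -0.15 (Angptl4+/+ 5 dpw) and 0.25 (Angptl4-/- 1 dpw). With cells thinned to 1000 UMIs, the count of higher genes was for Angptl4-/- over Angptl4+/+, 1 (neutrophil-like 5 dpw). With cells thinned to 1000 UMIs, the count of lower genes was for 5 over 1 dpw, 2 (neutrophil-like Angptl4-/-), and for Angptl4-/- over Angptl4+/+, 1 (macrophage-like 1 dpw) and 6 (macrophage-like 5 dpw), and for macrophage-like over neutrophil-like, 7 (Angptl4-/- 1 dpw). With clusters weighted equally, the median was for 5 over 1 dpw, -0.12 (neutrophil-like Angptl4+/+), 0.0459 (neutrophil-like Angptl4-/-), -0.60 (macrophage-like Angptl4+/+) and -0.60 (macrophage-like Angptl4-/-), and for Angptl4-/- over Angptl4+/+, -0.17 (neutrophil-like 1 dpw), and for macrophage-like over neutrophil-like, 0.17 (Angptl4+/+ 1 dpw) and 0.0516 (Angptl4-/- 1 dpw). With clusters weighted equally, the count of higher genes was for Angptl4-/- over Angptl4+/+, 1 (macrophage-like 5 dpw). With clusters weighted equally, the count of lower genes was for 5 over 1 dpw, 2 (neutrophil-like Angptl4-/-), and for Angptl4-/- over Angptl4+/+, 0 (neutrophil-like 1 dpw) and 1 (macrophage-like 1 dpw), and for macrophage-like over neutrophil-like, 8 (Angptl4-/- 1 dpw). Without called doublets, the median was for Angptl4-/- over Angptl4+/+, -0.23 (macrophage-like 1 dpw). With the mean over cells in place of pooled UMIs, the median was for 5 over 1 dpw, -0.0194 (neutrophil-like Angptl4+/+), and for Angptl4-/- over Angptl4+/+, -0.11 (neutrophil-like 1 dpw), and for macrophage-like over neutrophil-like, 0.33 (Angptl4+/+ 1 dpw) and -0.18 (Angptl4+/+ 5 dpw). With the mean over cells in place of pooled UMIs, the count of higher genes was for macrophage-like over neutrophil-like, 8 (Angptl4+/+ 5 dpw). With the mean over cells in place of pooled UMIs, the count of lower genes was for 5 over 1 dpw, 2 (neutrophil-like Angptl4-/-), and for Angptl4-/- over Angptl4+/+, 6 (macrophage-like 5 dpw), and for macrophage-like over neutrophil-like, 5 (Angptl4-/- 1 dpw). With the median gene set to 0, the median was for 5 over 1 dpw, -0.64 (neutrophil-like Angptl4+/+), -0.64 (neutrophil-like Angptl4-/-), -0.84 (macrophage-like Angptl4+/+) and -0.85 (macrophage-like Angptl4-/-), and for Angptl4-/- over Angptl4+/+, -0.0236 (neutrophil-like 1 dpw) and 0.0748 (neutrophil-like 5 dpw), and for macrophage-like over neutrophil-like, -1.25 (Angptl4+/+ 1 dpw), -1.36 (Angptl4+/+ 5 dpw), -1.56 (Angptl4-/- 1 dpw) and -1.44 (Angptl4-/- 5 dpw). With the median gene set to 0, the count of higher genes was for 5 over 1 dpw, 0 (neutrophil-like Angptl4+/+) and 0 (neutrophil-like Angptl4-/-), and for macrophage-like over neutrophil-like, 2 (Angptl4+/+ 1 dpw), 2 (Angptl4+/+ 5 dpw), 1 (Angptl4-/- 1 dpw) and 0 (Angptl4-/- 5 dpw). With the median gene set to 0, the count of lower genes was for 5 over 1 dpw, 19 (neutrophil-like Angptl4+/+) and 16 (neutrophil-like Angptl4-/-), and for Angptl4-/- over Angptl4+/+, 1 (macrophage-like 1 dpw), and for macrophage-like over neutrophil-like, 26 (Angptl4+/+ 1 dpw), 24 (Angptl4+/+ 5 dpw), 27 (Angptl4-/- 1 dpw) and 28 (Angptl4-/- 5 dpw). With neutrophil RNA subtracted, the count of higher genes was for Angptl4-/- over Angptl4+/+, 1 (macrophage-like 1 dpw) and 1 (macrophage-like 5 dpw). With a clustering resolution of 1.0, the median was for 5 over 1 dpw, -0.73 (macrophage-like Angptl4+/+) and -0.83 (macrophage-like Angptl4-/-), and for macrophage-like over neutrophil-like, 0.503 (Angptl4+/+ 1 dpw) and 0.35 (Angptl4-/- 1 dpw). With a clustering resolution of 1.0, the count of lower genes was for Angptl4-/- over Angptl4+/+, 6 (macrophage-like 5 dpw). Counts in these alternatives are given without the share over all genes. All single values that turned did so with the median gene set to 0. In the ratio of 5 over 1 dpw (neutrophil-like Angptl4+/+), these were Pfkfb3 -0.0729. In the ratio of macrophage-like over neutrophil-like (Angptl4+/+ 1 dpw), these were Gpi1 -0.99, Tpi1 -0.69, Pgk1 -0.70, Pgam1 -0.78, Eno1 -0.59, Ldha -1.003, Bnip3 -0.69, Hif1a -0.99 and Mxi1 -0.56. In the ratio of macrophage-like over neutrophil-like (Angptl4+/+ 5 dpw), these were Pgk1 -0.19 and Ndrg1 -0.25. In the ratio of macrophage-like over neutrophil-like (Angptl4-/- 1 dpw), these were Gpi1 -1.14, Tpi1 -0.68, Pgk1 -0.88, Pgam1 -1.01, Eno1 -0.99, Ldha -1.19, Pdk1 -0.24, Bnip3 -0.84, Hif1a -0.81 and Mxi1 -0.83. In the ratio of macrophage-like over neutrophil-like (Angptl4-/- 5 dpw), these were Gpi1 -0.39 and Egln1 -0.0295.

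The data hold 1 library per group, so no setting replaces replicate error, and no replicate was there to leave out. No paired analysis was possible because the labels give no replicate numbers and each group is 1 library. Depth limits the low genes most: Adm was under the minimum of 100 UMIs, and in macrophage-like cells Aldoc rests on 37 to 177 UMIs a library and Slc2a3 on 138 to 471. Cluster names were rebuilt here and are not the study's own.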
